A study of Mus musculus with 6 samples.

Results

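Transcripts of 10 alcohol and aldehyde dehydrogenases were compared between livers of gSpns1-cKO and control mice. The members were Adh1, Adh4, Adh5, Adh7, Aldh1a1, Aldh1a7, Aldh1l1, Aldh1l2, Aldh2 and Aldh3a2, taken by gene symbol from a table of 54532 genes, and all 10 passed the filter on low counts together with 15449 genes in all. Liver RNA came from 3 gSpns1-cKO and 3 control mice, 1 library per mouse, and the question was how the hepatic transcriptome differs when Spns1, which encodes a lysosomal exporter of lysolipids, is deleted. The gSpns1-cKO mice were C57BL/6 animals with loxP-flanked Spns1 alleles (Spns1 fl/fl) and Rosa26Cre-ERT2, a Cre recombinase that is expressed in the whole body and activated by tamoxifen. Tamoxifen was injected intraperitoneally at 50 mg/kg on postnatal days 11, 13 and 15 and removes exon 3 of Spns1. Controls for this line were Spns1 fl/fl littermates in the methods, whereas the sample labels call them WT, and neither source used here gives the age of the mice at liver harvest or states whether controls received tamoxifen. The deletion was not restricted to the liver, so effects of Spns1 loss in hepatocytes and elsewhere in the body cannot be told apart.

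Alcohol dehydrogenases oxidise alcohols to aldehydes with NAD+, and aldehyde dehydrogenases oxidise aldehydes further to carboxylic acids. The liver is the main site of ethanol oxidation, in which class I alcohol dehydrogenase makes acetaldehyde and mitochondrial Aldh2 removes it. Other members act on retinol and retinaldehyde in the synthesis of retinoic acid, on formaldehyde bound to glutathione, on formyl groups carried by folate, and on long-chain fatty aldehydes released from ether lipids and sphingolipids.

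On the mouse GRCm38 (mm10) assembly, the 4 alcohol dehydrogenase genes lay in a row on the plus strand of chromosome 3. In order they were Adh7 (chr3:138217760-138233382), Adh1 (chr3:138260991-138290698), Adh4 (chr3:138415466-138430892) and Adh5 (chr3:138443093-138455499). Adh7 and Adh1 were 27608 bp apart, Adh1 and Adh4 124767 bp, and Adh4 and Adh5 12200 bp. The interval between Adh1 and Adh4 held Adh6a, Adh6b, the pseudogene Adh6-ps1 and Gm23467. Aldh1a1 (chr19:20492715-20643462, plus strand) and Aldh1a7 (chr19:20692953-20727562, minus strand) were neighbours 49490 bp apart. The remaining genes were single on their chromosomes among the members: Aldh2 at chr5:121566027-121593824 (minus), Aldh1l1 at chr6:90486427-90600203 (plus), Aldh1l2 at chr10:83487450-83534140 (minus) and Aldh3a2 at chr11:61223417-61267464 (minus).

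Aldh1a1 and Aldh1a7 were the most alike pair, which bears on how reads are divided between them. Their coding sequences in the GENCODE M21 annotation were both 1506 bases long and differed at 126 aligned bases, an identity of 91.6%. The longest identical run was 100 bases, and 1 of the 1407 windows of 100 bases in Aldh1a7 was also found in Aldh1a1. The next most alike pair was Aldh1l1 and Aldh1l2 at 71.7%, and pairs of alcohol dehydrogenases ranged from 61.7% to 68.8%, with no window shared. The first 90 coding bases of both Aldh1a genes, counted from the start codon, are shown with the 5 bases that differ in capitals.
Aldh1a1: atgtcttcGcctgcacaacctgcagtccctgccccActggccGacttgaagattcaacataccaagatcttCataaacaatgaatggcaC
Aldh1a7: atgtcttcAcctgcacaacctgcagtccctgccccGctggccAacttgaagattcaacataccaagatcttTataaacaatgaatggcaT

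The 250 bases before the transcription start of RefSeq (GRCm38.p6) were available for 8 of the 10 members. For Aldh1a1 and Aldh1a7 they are shown because the similarity of the pair extended upstream, with 94 of the last 100 bases identical. Of the 150 before these, 35 were identical. Positions were compared without gaps, so matches shifted by an insertion or deletion were not counted. The lower count therefore does not show that the similarity ended there. For Adh1 and Adh4 they are shown because these neighbours differed in the comparison that follows. Capitals mark matches on either strand to the letters TATAAA of the TATA box, to CCAAT of the box named for it, or to the letters GGGCGG of the GC box. The windows are chr19:20601718-20601967 (plus) for the start of Aldh1a1 that lies nearer its coding exons, chr19:20727557-20727806 (minus) for Aldh1a7, chr3:138277335-138277584 (plus) for Adh1, and chr3:138415247-138415496 (plus) for Adh4. The Aldh1a1 and Adh1 windows lie inside the gene spans given above, since the annotation of the table starts both genes further upstream.
Aldh1a1: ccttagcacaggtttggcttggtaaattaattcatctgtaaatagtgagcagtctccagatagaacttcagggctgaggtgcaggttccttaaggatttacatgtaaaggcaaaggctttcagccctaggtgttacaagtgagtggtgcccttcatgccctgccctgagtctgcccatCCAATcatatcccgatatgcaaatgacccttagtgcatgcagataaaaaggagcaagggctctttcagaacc
Aldh1a7: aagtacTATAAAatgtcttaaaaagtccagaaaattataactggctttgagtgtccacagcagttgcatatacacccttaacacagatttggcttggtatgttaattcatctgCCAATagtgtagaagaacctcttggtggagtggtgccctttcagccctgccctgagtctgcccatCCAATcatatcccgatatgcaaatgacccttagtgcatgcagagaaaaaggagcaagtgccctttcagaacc
Adh1: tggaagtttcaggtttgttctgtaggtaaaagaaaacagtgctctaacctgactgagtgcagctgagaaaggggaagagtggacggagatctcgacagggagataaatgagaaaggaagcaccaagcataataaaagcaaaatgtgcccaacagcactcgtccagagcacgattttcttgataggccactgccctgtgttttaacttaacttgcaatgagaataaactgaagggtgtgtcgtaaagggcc
Adh4: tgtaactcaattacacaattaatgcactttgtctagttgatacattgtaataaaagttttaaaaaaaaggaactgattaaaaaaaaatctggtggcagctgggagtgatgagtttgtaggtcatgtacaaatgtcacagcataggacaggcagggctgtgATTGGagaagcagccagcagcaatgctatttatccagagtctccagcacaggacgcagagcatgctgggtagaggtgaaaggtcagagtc

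Among 32851 such windows of all RefSeq promoters, 12.4% held such a TATA box, 33.8% a CCAAT box and 32.7% a GC box. The TATA box was found for 3 members (Adh5, Adh7 and Aldh1a7), the CCAAT box for 6 (Adh4, Adh7, Aldh1a1, Aldh1a7, Aldh1l1 and Aldh3a2) and the GC box for 3 (Adh5, Aldh1l1 and Aldh3a2). A member was counted if any of its windows, 10 for the 8 members, held the box, whereas the shares are per window. For Adh5 the TATA box was in a window upstream of the gene span (chr3:138436950-138437199). Its GC box was in the window at the gene start (chr3:138442843-138443092), which held no TATA box. The Adh1 window held none of these. These are matches of letters and no binding was measured.

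The libraries held between 30350002 and 35295611 counts. Values are given as CPM, the counts of a gene relative to library sizes scaled by TMM, a method that sets most genes to no change on average. The scaling factors ran from 0.834 to 0.873 for control and from 1.16 to 1.18 for gSpns1-cKO livers, so CPM of the groups depend on this scaling. Calls were therefore also made with upper-quartile scaling, with library size only, and with libraries scaled to the summed counts of 11 hepatocyte marker genes (hepatocyte marker scaling). Alb weighs most in that sum. Its mean was 69297 CPM in control livers, where the sum was between 127046 and 129328 CPM. In gSpns1-cKO livers it was 41855 CPM, with sums between 77080 and 85550 CPM. Spns1 itself was at 35.8, 50.7 and 34.6 CPM in control and at 17.8, 30.6 and 17.7 CPM in gSpns1-cKO livers, without overlap, and fell with a log2 fold change of -0.87 ± 0.25 (SE, edgeR quasi-likelihood test, Benjamini-Hochberg adjusted p = 0.030). That call was lost under upper-quartile scaling (adjusted p = 0.0635), under library size only (adjusted p = 0.212) and under hepatocyte marker scaling (adjusted p = 0.373), and counts per gene cannot show the missing exon. gSpns1-cKO replicate 1 was unlike the other 2 for several members, and values without it are given where a call changes.

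Of the 10 members, 7 fell in gSpns1-cKO livers at an adjusted p below 0.05, none rose and 3 did not pass, against 20.5% lower, 21.3% higher and 41.8% in either direction among all genes tested. The median log2 fold change of the members was -0.75, and that of all genes tested was 0.014. The 7 that fell, Adh4, Adh5, Adh7, Aldh1a1, Aldh1l1, Aldh2 and Aldh3a2, were also the 7 whose groups did not overlap, which held in the lower direction for 26.9% and in the higher for 27.1% of all genes tested. Exact permutation tests gave p = 0.1 for each of these, the smallest that 3 mice against 3 allow. Under library size only and under scaling to hepatocyte markers, 3 members remained lower, namely Adh4, Aldh1a1 and Aldh3a2. Of all genes tested, 6.29% and 3.72%, respectively, were lower under these scalings.

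**Figure D1:**
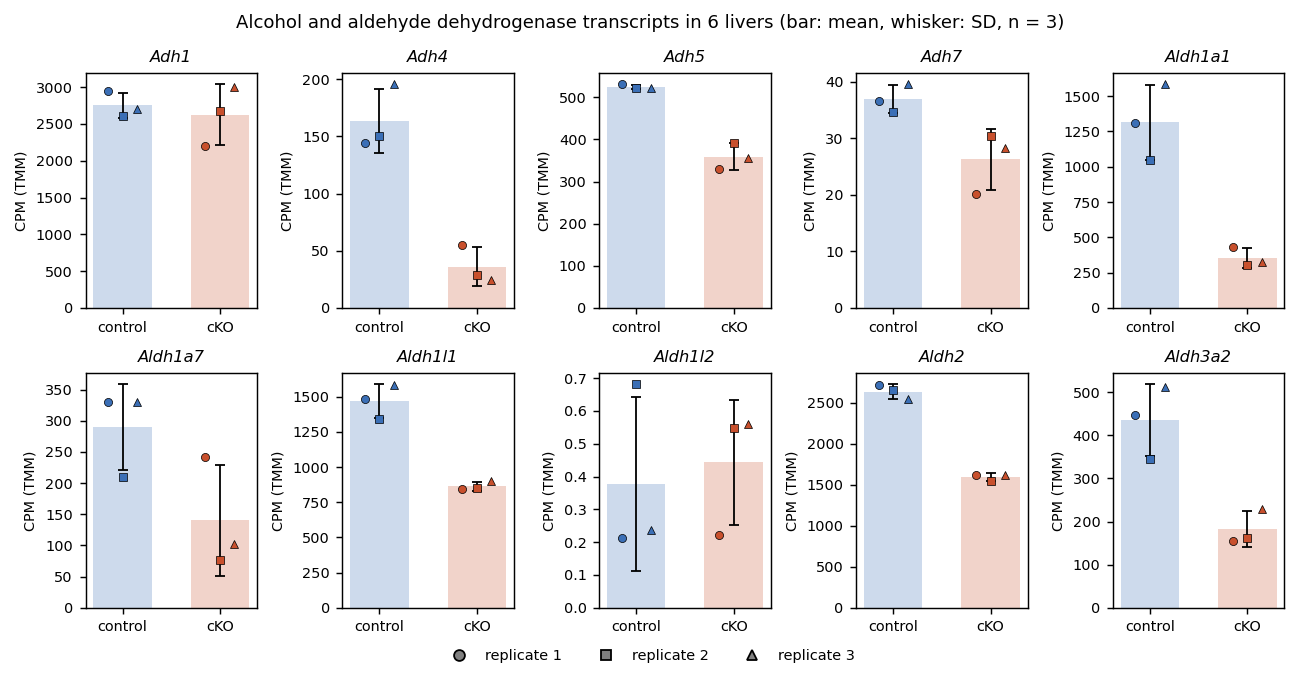
TMM-scaled CPM (linear axes from 0) of each member in 3 control and 3 gSpns1-cKO (cKO) livers, with bars at the mean, whiskers of 1 SD and marker shapes for the replicate number. The groups do not overlap for 7 members and overlap for Adh1, Aldh1a7 and Aldh1l2.

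Adh1, the class I enzyme that oxidises most ethanol in the liver, was the most abundant member and did not pass the test. It was at 2945, 2604 and 2708 CPM in control and at 2195, 2680 and 3009 CPM in gSpns1-cKO livers. The lowest and the highest value both belonged to gSpns1-cKO livers, so the groups overlapped. Its log2 fold change was -0.07 ± 0.17 (SE), with a 95% interval from -0.44 to 0.31 (edgeR, adjusted p = 0.779). The sign was positive under upper-quartile scaling (0.0651), library size only (0.38, adjusted p = 0.0803) and hepatocyte marker scaling (0.58, adjusted p = 0.00798), and also without gSpns1-cKO replicate 1 (0.045).

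Aldh2, the mitochondrial enzyme that clears acetaldehyde, was at 2714, 2655 and 2539 CPM in control and at 1624, 1539 and 1613 CPM in gSpns1-cKO livers. Both groups were tight, with coefficients of variation of 3.38% and 2.90%, and stood well apart. Aldh2 fell by 39.6%, a log2 fold change of -0.73 ± 0.14 (edgeR, adjusted p = 0.00279). The call was lost under library size only (-0.28, adjusted p = 0.113) and under hepatocyte marker scaling (-0.08, adjusted p = 0.658).

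Adh4, the class II enzyme, which acts on retinol and other larger alcohols, had the lowest fold change of the members. It was at 144, 150 and 195 CPM in control livers. The gSpns1-cKO livers were at 55.3, 28.6 and 24.5 CPM, with replicate 1 the highest and still below every control. Adh4 fell by 77.9%, with a log2 fold change of -2.18 ± 0.34 (edgeR, adjusted p = 0.00400). It remained called lower under all 9 other settings and all 6 omissions of a mouse, with log2 fold changes from -2.62 to -1.51.

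Adh7, the class IV enzyme, which oxidises retinol and is best known from stomach epithelium, was the least abundant alcohol dehydrogenase among the members. It was at 36.6, 34.6 and 39.5 CPM in control and at 20.2, 30.4 and 28.2 CPM in gSpns1-cKO livers, and the gap between the groups was smaller than the spread within the gSpns1-cKO livers. The log2 fold change was -0.49 ± 0.15 (edgeR, adjusted p = 0.0237). The call was lost without control replicate 1 (adjusted p = 0.0506), without control replicate 3 (adjusted p = 0.0813), under upper-quartile scaling (adjusted p = 0.0889) and under library size only (adjusted p = 0.823), and the sign was positive under hepatocyte marker scaling (0.15). The opposite-strand gene 0610031O16Rik overlaps Adh7 and held 5547 counts over all libraries against 6099 of Adh7. It was at 37.8, 37.6 and 40.0 CPM in control and at 18.7, 22.0 and 20.1 CPM in gSpns1-cKO livers, a log2 fold change of -0.92 ± 0.11 (edgeR, adjusted p = 0.000125). Whether strand was used in counting is not given in the sources used here, so reads of the overlapping genes may not be told apart.

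Adh5, the class III enzyme, oxidises the glutathione adduct of formaldehyde and reduces S-nitrosoglutathione. It was at 531, 523 and 522 CPM in control livers, the smallest relative spread of any member in a group (0.946%), and at 329, 393 and 356 CPM in gSpns1-cKO livers. All gSpns1-cKO livers were below all controls. Adh5 fell by 31.6%, a log2 fold change of -0.55 ± 0.13 (edgeR, adjusted p = 0.00707), but the call was lost under library size only (-0.10, adjusted p = 0.522) and the sign was positive under hepatocyte marker scaling (0.10, adjusted p = 0.496).

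Aldh1a1, the cytosolic enzyme that converts retinaldehyde to retinoic acid, was at 1308, 1050 and 1583 CPM in control and at 433, 302 and 322 CPM in gSpns1-cKO livers. Every control was more than 2 times as high as the highest gSpns1-cKO value. Aldh1a1 fell by 73.2%, with a log2 fold change of -1.90 ± 0.20 (edgeR, adjusted p = 7.76e-05), the lowest p of the members. The call held under every scaling, with -1.24 under hepatocyte marker scaling (adjusted p = 0.000629).

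Aldh1a7, its cytosolic neighbour, was at 330, 210 and 330 CPM in control and at 242, 76.6 and 101.7 CPM in gSpns1-cKO livers. Replicate 1 of the gSpns1-cKO livers lay within the control range and the other 2 below it. The log2 fold change was -1.05 ± 0.49, with a 95% interval from -2.30 to 0.21 (edgeR, adjusted p = 0.152). Without gSpns1-cKO replicate 1 it was -1.70 (adjusted p = 0.000717). Counts of Aldh1a7 per count of Aldh1a1, a ratio that needs no scaling, were 0.252, 0.200 and 0.208 in control and 0.559, 0.254 and 0.316 in gSpns1-cKO livers. The ratio was higher in gSpns1-cKO livers but the nearest values, 0.252 and 0.254, almost met (exact permutation test, two-sided, p = 0.1). Because reads could be split between these 2 genes, their counts were also summed. The sum was at 1603 ± 328 CPM (SD, n = 3) in control and 492 ± 160 CPM in gSpns1-cKO livers, a log2 fold change of -1.70 ± 0.25 (edgeR, adjusted p = 0.000588).

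Aldh1l1, the cytosolic 10-formyltetrahydrofolate dehydrogenase, which releases the formyl group of folate as carbon dioxide, was at 1485, 1343 and 1581 CPM in control and at 842, 851 and 902 CPM in gSpns1-cKO livers. The groups were well separated. Aldh1l1 fell by 41.1%, a log2 fold change of -0.76 ± 0.14 (edgeR, adjusted p = 0.00200), and the call was lost under library size only (-0.32, adjusted p = 0.0701) and under hepatocyte marker scaling (-0.11, adjusted p = 0.488). Its mitochondrial counterpart Aldh1l2 was near the limit of detection, with 6, 21 and 6 counts in control and 8, 21 and 22 counts in gSpns1-cKO livers. The groups overlapped, and the log2 fold change of 0.21 ± 0.58 (95% interval from -1.08 to 1.5, edgeR, adjusted p = 0.796) changed sign without control replicate 1 (-0.0854) or 3 (-0.0337), so a change was not detectable at this depth. The overlapping opposite-strand gene D10Wsu102e held 3207 counts over all libraries against 84 of Aldh1l2, and it was higher in gSpns1-cKO livers (log2 fold change 0.37 ± 0.12, edgeR, adjusted p = 0.0337).

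Aldh3a2, the fatty aldehyde dehydrogenase, oxidises long-chain aldehydes such as those from sphingosine 1-phosphate, phytol and ether lipids. It was at 448, 345 and 511 CPM in control and at 155, 161 and 230 CPM in gSpns1-cKO livers. The groups did not overlap, although each varied by about the same share of its mean (19.3% and 22.9%). Aldh3a2 fell by 58.2%, a log2 fold change of -1.26 ± 0.19 (edgeR, adjusted p = 0.000779), and the call held under every setting, with -0.61 under hepatocyte marker scaling (adjusted p = 0.0167).

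**Figure D2:**
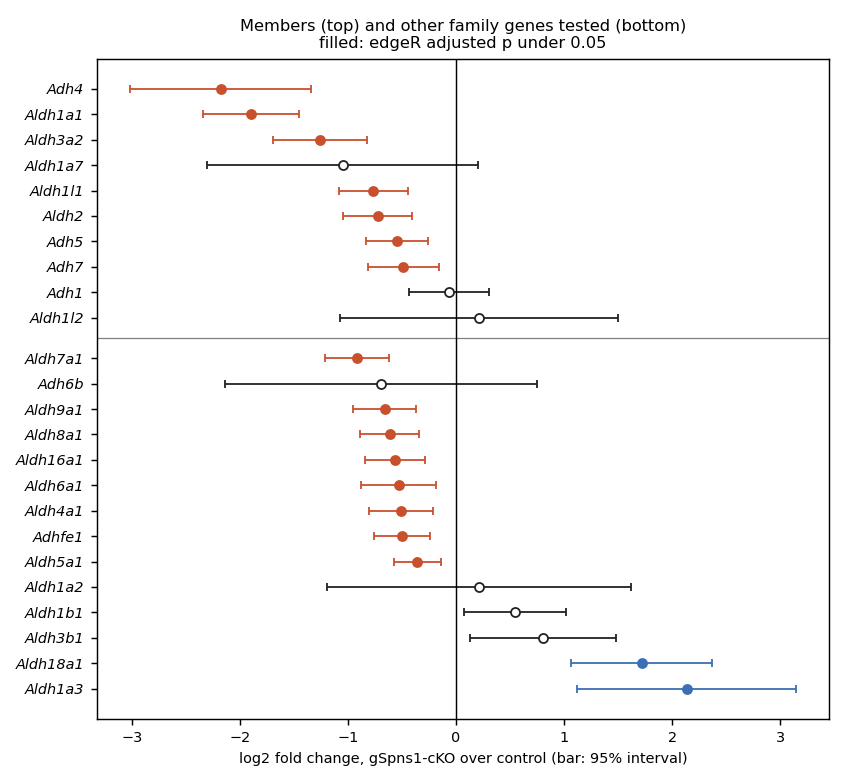
Log2 fold change (gSpns1-cKO over control, TMM scaling) with its 95% interval for the 10 members and 14 other genes of both families, filled where the edgeR adjusted p is below 0.05. Among the members 7 lie below 0 and pass, and 3 intervals include 0. Under hepatocyte marker scaling Adh1, Adh5 and Adh7 lie above 0, as does Aldh1l2 under every scaling.

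The scaling of the libraries moved all members together. Over all genes tested, the median was 0.014 with TMM, 0.14 under upper-quartile scaling, 0.46 under library size only and 0.66 under hepatocyte marker scaling, and of all calls 50.9%, 64.7%, 88.2% and 94.3%, respectively, were higher in gSpns1-cKO livers. The member median was -0.75, -0.62, -0.30 and -0.095 in the same order. A change of scaling moves the members and all other genes by about the same amount, so the gap between these medians says nothing on the stability of the result.

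**Figure D3:**
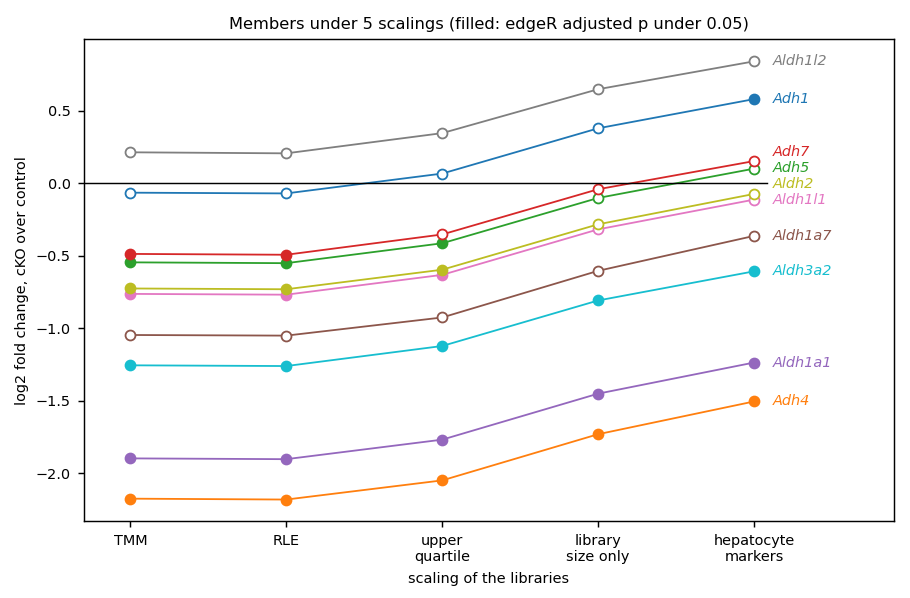
Log2 fold change of each member (vertical axis) under 5 scalings of the libraries (horizontal axis), filled where the edgeR adjusted p is below 0.05. Adh4, Aldh1a1 and Aldh3a2 stay below 0 and filled throughout, whereas Adh5 and Adh7 pass 0 under hepatocyte marker scaling and Adh1 already under upper-quartile scaling.

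Ratios of counts within a library do not depend on the scaling. Per count of Adh1, the counts of Aldh2 were 0.922, 1.02 and 0.938 in control and 0.740, 0.574 and 0.536 in gSpns1-cKO livers. The means were 0.960 in control and 0.617 in gSpns1-cKO livers. Counts were not divided by gene length here, so these ratios do not compare the transcript levels of 2 genes. The ratio of Aldh1a1 to Adh1 was 0.444, 0.403 and 0.584 in control and 0.197, 0.113 and 0.107 in gSpns1-cKO livers. That of Adh4 to Adh1 was 0.0488, 0.0578 and 0.0722 against 0.0252, 0.0107 and 0.00813. The ratios of Adh5, Adh7, Aldh1l1 and Aldh3a2 to Adh1 were also lower in all gSpns1-cKO livers, at 0.723, 0.743, 0.624 and 0.437 times the control mean, with p = 0.1 for each (exact permutation test, two-sided). The ratios of Aldh1a7 and Aldh1l2 overlapped between groups. A ratio shows unequal change of its 2 genes and not which one changed.

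**Figure D4:**
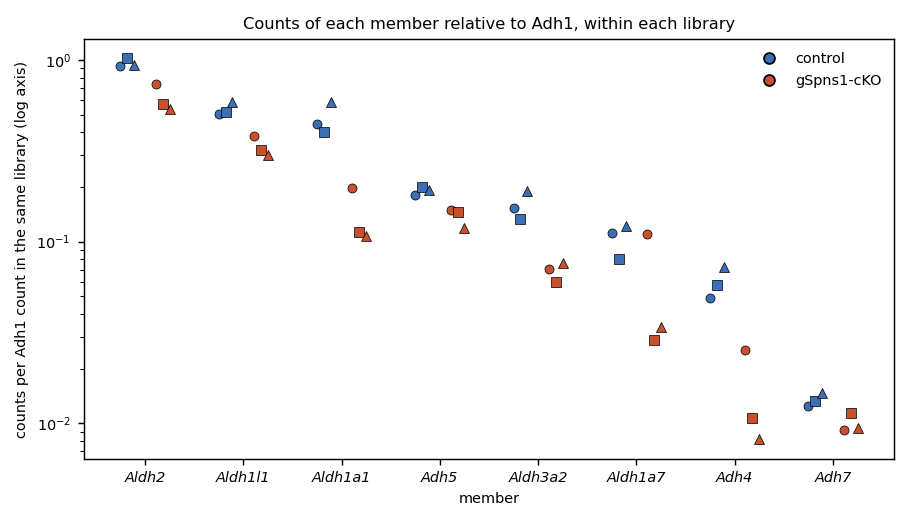
Counts of 8 members per count of Adh1 in the same library (log axis) for 3 control and 3 gSpns1-cKO livers, with circles, squares and triangles for replicates 1, 2 and 3. The ratio is lower in all gSpns1-cKO livers for 7 members and overlaps for Aldh1a7. Aldh1l2, with at most 22 counts, is left out.

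To compare levels between genes, CPM were divided by the deposited gene length in kilobases (RPKM). In control livers the order was Adh1 (1233 ± 78.4 RPKM, SD, n = 3), Aldh2 (514 ± 17.4), Aldh1l1 (325 ± 26.5), Aldh1a1 (266 ± 54.0), Aldh1a7 (140 ± 33.5), Adh4 (113 ± 19.4), Adh5 (97.1 ± 0.919), Aldh3a2 (77.4 ± 14.9), Adh7 (9.74 ± 0.654) and Aldh1l2 (0.0503 ± 0.0352). Aldh1l1 and Aldh1a1 overlapped, as did Aldh1a7 and Adh4, and the other neighbours in this order did not. In gSpns1-cKO livers Adh1 (1177 ± 183 RPKM), Aldh2 (311 ± 9.01) and Aldh1l1 (192 ± 7.11) kept the first places. Aldh1a1 (71.4 ± 14.3 RPKM), Aldh1a7 (67.8 ± 43.1) and Adh5 (66.4 ± 5.90) followed with overlapping ranges. Aldh3a2 (32.4 ± 7.41 RPKM) and Adh4 (24.9 ± 11.5) overlapped too, above Adh7 (6.94 ± 1.43) and Aldh1l2 (0.0590 ± 0.0255). The deposited length of a gene covers all its exons (4934 bp for Aldh1a1 against 1506 coding bases), so these levels depend on the annotation. The FPKM values deposited by the authors gave the same order.

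Other genes of both families moved in either direction. Of 18 listed, 14 were tested, 8 were lower and 2 higher, with a median log2 fold change of -0.51. Among all genes tested, 20.5% were lower and 21.3% higher. Under hepatocyte marker scaling 0 were lower and 5 higher, against 574 lower and 9531 higher of all 15449 genes tested. Aldh7a1, which acts in lysine breakdown, went from 683 ± 51.5 to 362 ± 14.8 CPM (log2 fold change -0.92, edgeR, adjusted p = 0.000482), and Aldh9a1, which acts in carnitine synthesis, from 274 ± 23.1 to 173 ± 20.0 CPM (-0.66, adjusted p = 0.00288). Both calls were lost under hepatocyte marker scaling, and that of Aldh9a1 also under library size only (adjusted p = 0.164). Aldh1a3, another retinaldehyde dehydrogenase, rose at low counts, with 11, 7 and 17 in control and 41, 96 and 77 in gSpns1-cKO livers (log2 fold change 2.13 ± 0.46, edgeR, adjusted p = 0.00424). Aldh18a1, which makes the precursor of proline, had 24, 39 and 19 against 128, 95 and 137 counts (1.72 ± 0.30, adjusted p = 0.00128). Both rises held under every scaling.

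Of 7 genes for partner steps of ethanol, formaldehyde and acetate metabolism, 4 fell and none rose (median log2 fold change -0.69). Among all genes tested, 20.5% fell and 21.3% rose. Cat, the peroxisomal catalase, went from 2408 ± 382 to 1235 ± 232 CPM (-0.96, edgeR, adjusted p = 0.00281). Cyp2e1, the microsomal ethanol-oxidising cytochrome P450, went from 8124 ± 1081 to 4576 ± 1739 CPM (-0.83, adjusted p = 0.0296). Neither call held under hepatocyte marker scaling. None of the 7 was called there, against 574 lower and 9531 higher of all 15449 genes tested. The call of Cyp2e1 was also lost under upper-quartile scaling (adjusted p = 0.0637) and library size only (adjusted p = 0.244).

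Of 22 retinoid genes tested, 5 fell and 5 rose, shares near those of all genes tested (20.5% lower and 21.3% higher), with a median of -0.13 that was positive under library size only (0.31) and hepatocyte marker scaling (0.53). Retsat, which saturates retinol, went from 344 ± 63.0 to 71.9 ± 12.4 CPM (-2.26, edgeR, adjusted p = 1.73e-05), and Dhrs4, a retinaldehyde and carbonyl reductase, from 201 ± 14.2 to 83.7 ± 3.53 CPM (-1.26, adjusted p = 3.12e-05). Dhrs9, a retinol dehydrogenase, rose from 1.38 ± 0.604 to 7.05 ± 3.07 CPM (2.37, edgeR, adjusted p = 0.00275). These 3 calls held under every scaling. Lrat, 1 of the 5 that rose, also stands in the list of stellate cell markers.

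Among 24 folate one-carbon genes, 9 fell and 4 rose, against 20.5% lower and 21.3% higher among all genes tested. The median was -0.13, but positive under upper-quartile scaling, library size only and hepatocyte marker scaling. Under the last, 1 was lower and 13 higher, against 574 lower and 9531 higher of all 15449 genes tested. Gnmt, which methylates glycine, went from 2202 ± 104.8 to 1015 ± 70.5 CPM (-1.12, edgeR, adjusted p = 0.000268), and the call held under every scaling. Sardh, which demethylates the product sarcosine, went from 1005 ± 106 to 504 ± 77.1 CPM (-0.996, adjusted p = 0.000954), a call lost under hepatocyte marker scaling. Mthfd1l, the mitochondrial formate-releasing enzyme, rose from 3.13 ± 0.838 to 7.13 ± 2.34 CPM (1.18, adjusted p = 0.00988), a call that held under every scaling.

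Of 12 genes for enzymes that reduce or conjugate aldehydes, 7 rose and 1 fell, against 21.3% and 20.5% of all genes tested. Their median log2 fold change was 0.96 and was positive under every scaling. The median of all genes tested was positive under each as well, from 0.014 with TMM to 0.66 under hepatocyte marker scaling. Akr1b7, an aldose reductase relative, had 1, 0 and 5 counts in control and 36, 230 and 448 in gSpns1-cKO livers (edgeR, adjusted p = 0.0194). Cbr3, a carbonyl reductase, had 15, 23 and 12 counts in control and 286, 78 and 175 in gSpns1-cKO livers (log2 fold change 3.02 ± 0.51, adjusted p = 0.00218). Akr7a5 fell from 262 ± 17.3 to 149 ± 23.0 CPM (-0.81, adjusted p = 0.00125), a call lost under hepatocyte marker scaling.

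Of 8 genes whose enzymes release or make fatty aldehydes or their precursors, 3 fell and 3 rose (median 0.06). The shares of all genes tested were 20.5% lower and 21.3% higher. Phyh, the phytanoyl-CoA hydroxylase, went from 2263 ± 91.8 to 709 ± 34.8 CPM (-1.67, edgeR, adjusted p = 2.68e-05). The related lysoplasmalogenase genes Tmem86a and Tmem86b moved apart, from 9.67 ± 1.94 to 19.9 ± 2.13 CPM (1.04, adjusted p = 0.000779) and from 101.7 ± 6.14 to 46.6 ± 11.4 CPM (-1.13, adjusted p = 0.000488). Far1, which reduces fatty acyl-CoA for ether lipid synthesis, rose from 2.71 ± 0.273 to 7.41 ± 0.789 CPM (1.45, adjusted p = 0.000230). The call of Tmem86b was lost under hepatocyte marker scaling (adjusted p = 0.0503).

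Markers of cell types moved with the groups as well. The counts below stand beside 20.5% lower and 21.3% higher among all genes tested. The summed level of 11 hepatocyte markers, which include Alb and Apoa1, was between 127046 and 129328 CPM in control and between 77080 and 85550 CPM in gSpns1-cKO livers. Of the 11, 7 fell and none rose. Under library size only, 1 of the 11 fell, and 6.29% of all genes tested were lower under that scaling. The summed level of the 10 members was between 8915 and 10008 CPM in control and between 5895 and 6587 CPM in gSpns1-cKO livers. Fewer hepatocytes and less RNA per hepatocyte cannot be told apart in whole liver. Of the pericentral hepatocyte markers 2 of 8 fell, which is near the share of all genes tested, with a list median of -0.16. Of the periportal ones 5 of 8 fell, and none was higher in either list. The median of the pericentral list was positive under library size only (0.28) and that of both lists under hepatocyte marker scaling. All 10 macrophage markers rose, with sums between 229 and 364 CPM in control and between 847 and 1250 CPM in gSpns1-cKO livers. All 6 cholangiocyte markers rose too, with sums between 44.3 and 62.9 CPM in control and between 171 and 280 CPM in gSpns1-cKO livers. For the stellate list, 5 of 7 rose, with sums between 176 and 206 CPM and between 459 and 529 CPM, and for the endothelial list 5 of 7, between 154 and 170 CPM and between 223 and 270 CPM. Markers also rose for 1 of 6 lymphocyte and 3 of 3 neutrophil genes tested, while of 3 erythroid genes tested 1 fell and 2 rose. No marker of these lists was at 0 in all 6 libraries. The sex-chromosome genes gave the same sex in all 6 libraries, with Ddx3y present in each, and 1 of the 4 tested was higher in gSpns1-cKO livers. The part of cell composition in the lower level of the members was not tested.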

How the data were processed

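Poly-T selected liver RNA of 6 mice was sequenced, 1 library per mouse, and groups were taken from the genotype labels. Per the submitters' processing notes, fastp, HISAT2 2.0.5, featureCounts 1.5.0-p3 and mm10 were used. The authors deposited whole-number counts per gene, not normalized, and these entered all tests. The authors also deposited FPKM values (counts per gene length and library total), used here only for the order of levels, and gene lengths. Columns with the authors' own group means, fold changes and p-values were not used.

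Tests were run with edgeR 4.0.16 under R 4.3.3 (filterByExpr, TMM, robust quasi-likelihood fit, no covariate, Benjamini-Hochberg adjustment over 15449 genes, threshold 0.05). The SE is the fold change over the square root of F. The members and gene lists were chosen with earlier results of these data known, so counts over a list are descriptions. Named besides the members are Spns1, the up to 2 highest and 2 lowest called genes of each related list whose mean reached 1 CPM, and the most abundant markers, of which a few are not reported here. Alternatives were RLE, upper-quartile and library-size scaling, scaling to hepatocyte markers, DESeq2 1.42.0, limma-voom (limma 3.58.1), 2 filters (1 or more counts in some library, or 10 or more in each), a threshold of 0.01, a replicate block and leaving out each mouse. Scripts were tested on simulated data. Depth was between 30350002 and 35295611 counts, so that 3 counts correspond to between 0.0763 and 0.118 CPM, a floor that covers counting error only. No 2 libraries of a group agreed within sampling noise (chi-square per gene between 38.8 and 114). The labels do not say more on the origin of replicates than 1 liver each, and p-values measure the spread between these samples. Coordinates are those of the table, 98.3% of which are the same in GENCODE M21. Among the members this held for all but Aldh1a1. Sequences were read from GENCODE M21 (GRCm38) and RefSeq GRCm38.p6 with Python 3.11.15 and Biopython 1.88.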

Additional observations from a re-analysis of the deposited data

How the results depend on the processing

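RLE scaling, DESeq2, limma-voom and both other filters on low counts left 7 members lower and 0 higher. Upper-quartile scaling gave 6 and 0, with a median of the members of -0.62, and a threshold of 0.01 gave 6, with 1907 genes lower and 1983 higher among all tested, against 3166 and 3287. Library size only gave 3 members lower and a member median of -0.30, related lists with 11 lower and 35 higher (30 and 21 with TMM), and 971 lower and 7285 higher genes in all. Scaling to hepatocyte markers gave 3 members lower and 1 higher, a member median of -0.095, related lists with 5 lower and 44 higher, and 574 lower and 9531 higher genes in all. By construction, the latter sets the summed hepatocyte markers equal in all libraries. The cause of the other differences was not tested.

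Signs turned for Adh1 under upper-quartile scaling (0.0651), library size only (0.38), hepatocyte marker scaling (0.58) and without gSpns1-cKO replicate 1 (0.0449, with a range from -0.18 over the omissions), for Adh5 (0.10) and Adh7 (0.15) under hepatocyte marker scaling, and for Aldh1l2 without control replicate 1 (-0.0854) or 3 (-0.0337), with omissions reaching up to 0.97. Leaving out each mouse gave 6 to 8 members lower and 0 higher, a member median from -0.78 to -0.73, 24 to 31 related genes lower and 20 to 22 higher, and 2125 to 3216 genes lower and 2365 to 3213 higher in all. Of the alternatives for single genes, 131 kept direction and call, 9 lost the call, 2 gained it and 8 turned sign.

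Deviations from the group mean correlated by 0.042, 0.032 and -0.027 between same-numbered mice of the groups. Between differently numbered mice the correlations ran from -0.081 to 0.056. Such small values cannot decide whether the numbers pair the mice, for example as littermates. With the replicate block 8 members were lower, with Aldh1a7 added (-1.20, edgeR, adjusted p = 0.01002), and 0 higher, and 3016 genes were lower and 3083 higher. Depth limits only Aldh1l2, with at most 22 counts. With 3 mice a group, exact permutation tests cannot go below 0.1, so calls rest on edgeR's model.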
